A study of Mus musculus with 16 samples.

Results

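The 9 genes described here encode the ligands and receptors of the glial cell line-derived neurotrophic factor (GDNF) family, read in RNA from mouse spleen. They were taken by symbol from the deposited count table, in which all 9 were found among 54838 gene identifiers. They comprise 4 ligand genes (*Gdnf*, *Nrtn*, *Artn* and *Pspn*), 4 co-receptor genes (*Gfra1*, *Gfra2*, *Gfra3* and *Gfra4*) and the signalling receptor gene *Ret*. The 16 libraries came from C57BL/6 mice with no treatment or transgene named in the labels. The 8 size-selected samples hold the material that a strainer held back once the organ had been digested with enzymes and its red cells lysed, and their labelled source is spleen glia. The 8 whole spleen samples carry the same numbers (407, 408, 427 and 435 from male mice, and 436, 445, 447 and 460 from female mice), and the labels give them no separate preparation. The series set out to find genes enriched in spleen glia relative to whole spleen, and the labels do not give the age of the mice.

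The ligands of the family are secreted proteins that act on neurons and other cells. Each ligand binds a preferred co-receptor held at the cell surface by a lipid anchor, GDNF with GFRA1, neurturin with GFRA2, artemin with GFRA3 and persephin with GFRA4. The ligand and co-receptor together engage RET, a receptor tyrosine kinase that recruits adaptor proteins and activates the MAP kinase and PI3 kinase pathways. In peripheral tissue the family is known for its roles in the enteric and sympathetic nervous systems, and glial cells and smooth muscle are known sources of its ligands.

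Of the 9 genes, 7 passed the filter on low counts and all 7 were higher in the size-selected samples, with a median log2 fold change of 3.70 against 0.05 for the 14510 genes tested. Calls were made with edgeR at an adjusted p under 0.05. Among all tested genes 37.5% were called higher, 30.4% were called lower and 67.9% were called in either direction. The count of 7 and its median include genes that passed the filter only through their level in the size-selected samples, which favours large rises. Within whole spleen alone 2 members passed it. Both values are therefore given as a description. *Artn* and *Pspn* did not pass the filter of this main fit. In 6 of the 9 genes every size-selected library was above every whole spleen library, 5 of them among the tested genes, where 23.3% of all genes showed this. For the same reason these counts are a description only. Levels are given as CPM (read counts scaled to the library total, after TMM scaling of the totals).

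Library totals ran from 13119955 to 19944381 estimated counts in the size-selected group and from 12153763 to 16282420 in whole spleen. No library was a copy of another. Several libraries stood out for markers of other cells. The size-selected library of number 436 had the highest summed CPM of the glia list (683, with the next at 272), and the whole spleen library of number 427 was the highest of its group for the glia, fibroblast, smooth muscle, endothelial and macrophage lists. Size-selected number 435 had the highest erythroid sum (3506 CPM, with the next at 1341), and size-selected number 427 the highest smooth muscle, endothelial and macrophage sums. Number 427 was also the highest size-selected library for *Nrtn*, *Artn*, *Gfra2* and *Gfra4*. Values that move most without numbers 436 or 427 are given below.

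The size-selected samples held markers of many cell types. Of the glia markers, 10 of 14 passed the filter and all 10 were higher, with a summed level from 93.1 to 683 CPM against 8.73 to 24.2 CPM in whole spleen. All tested markers of fibroblasts (8 of 8, 1018 to 3591 against 6.78 to 60.5 CPM), smooth muscle (7 of 7, 821 to 3846 against 8.74 to 73.7 CPM), mesothelium (7 of 7, 41.2 to 264 against 0.533 to 3.14 CPM) and endothelium (7 of 7, 554 to 1464 against 76.9 to 178 CPM) were also higher. Macrophage markers were higher in 4 of 7 (1757 to 4313 against 1171 to 1984 CPM). Lower were 5 of 6 B cell markers (959 to 3392 against 5303 to 6549 CPM), 5 of 6 T cell markers (145 to 411 against 464 to 735 CPM) and 3 of 6 erythroid markers (107 to 3506 against 280 to 13707 CPM). Sympathetic neuron markers passed in 4 of 12, with 3 higher (25.2 to 65.9 against 3.59 to 8.68 CPM), *Th* was at 0 in all 16 libraries, and *Dbh* was at 0 in all whole spleen libraries. Innate lymphoid markers passed in 3 of 6, with 1 higher and 2 lower (61.2 to 99.2 against 32.1 to 64.2 CPM). The single pancreas acinar marker tested was not called, and no adipocyte marker passed the filter. In such bulk samples fewer cells of a type and less RNA per cell cannot be told apart. The part of these lists in the differences below was not tested except where a value is given.

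**Figure D1:**
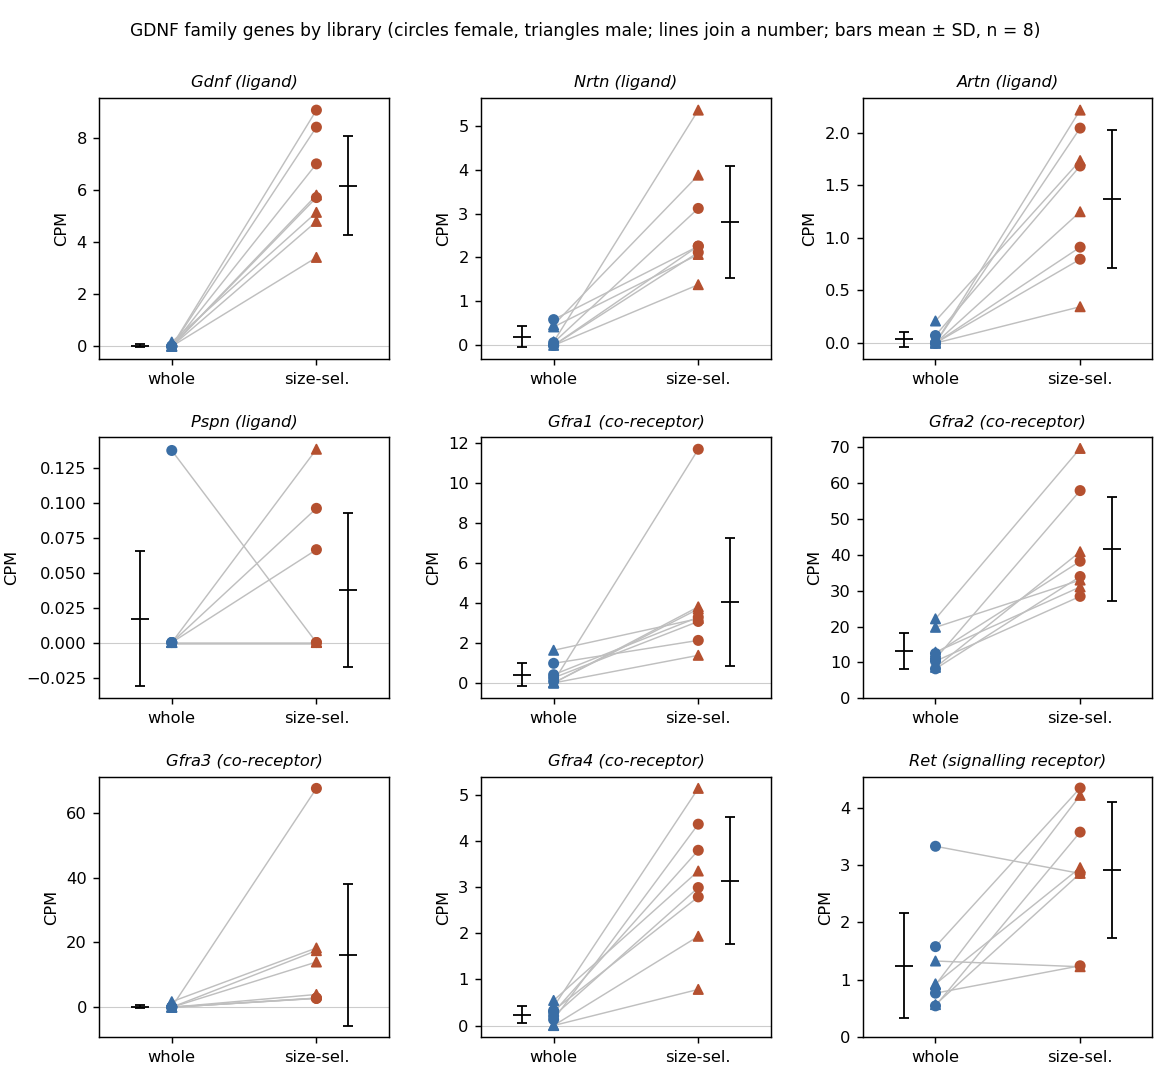
Level of each of the 9 genes in CPM (y axis, linear, a separate scale for each gene) in whole spleen (blue) and size-selected (orange) libraries, with female samples as circles, male samples as triangles, a line joining the samples of a number, and the mean ± SD over 8 libraries beside each group. *Gdnf*, *Nrtn*, *Artn*, *Gfra2*, *Gfra3* and *Gfra4* had no overlap between groups, *Gfra1* and *Ret* overlapped, and *Pspn* was at 0 in most libraries of both groups.

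The 3 ligand genes *Gdnf*, *Nrtn* and *Artn* were near 0 in whole spleen and higher in the size-selected library of every number, so the DNA around a RefSeq start of each is shown. RefSeq promoter windows, from 250 bases before to 50 bases after an annotated start on GRCm38.p6, were matched for 6 of the 9 genes (*Gdnf*, *Nrtn*, *Artn*, *Pspn*, *Gfra1* and *Gfra4*). Each window reads 5′ to 3′ on the strand of the gene, and capitals mark a match to a TATA box or a GC box on either strand.
Gdnf, first of 2 annotated windows, chr15:7809798-7810097, plus strand: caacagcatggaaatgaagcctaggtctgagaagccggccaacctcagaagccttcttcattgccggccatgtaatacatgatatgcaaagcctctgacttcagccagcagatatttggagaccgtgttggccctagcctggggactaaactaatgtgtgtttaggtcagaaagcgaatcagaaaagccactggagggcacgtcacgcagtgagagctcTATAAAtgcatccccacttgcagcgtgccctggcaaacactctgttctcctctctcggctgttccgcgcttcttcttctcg
Nrtn, chr17:56757499-56757798, minus strand: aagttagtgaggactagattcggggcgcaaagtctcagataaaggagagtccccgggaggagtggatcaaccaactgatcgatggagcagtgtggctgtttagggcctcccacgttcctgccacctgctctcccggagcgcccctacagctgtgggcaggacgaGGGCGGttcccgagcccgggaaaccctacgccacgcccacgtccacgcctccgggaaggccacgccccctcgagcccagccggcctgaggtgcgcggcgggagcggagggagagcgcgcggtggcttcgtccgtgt
Artn, chr4:117929714-117930013, minus strand: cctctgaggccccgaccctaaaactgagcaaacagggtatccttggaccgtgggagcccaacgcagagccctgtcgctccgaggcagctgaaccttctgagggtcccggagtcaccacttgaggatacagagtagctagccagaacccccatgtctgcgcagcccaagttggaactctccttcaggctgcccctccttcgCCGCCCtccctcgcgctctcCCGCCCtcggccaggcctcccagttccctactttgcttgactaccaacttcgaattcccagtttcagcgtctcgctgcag
The *Gdnf* window shown ends at 7810097, before the GENCODE start of the gene at 7810846, so distances in it are from the RefSeq start. It held 1 TATA box (TATAAA, found in 13.6% of 32851 mouse promoter windows of the same length) at -31 from that start, and the second *Gdnf* window held 0. *Nrtn* held 1 GC box (GGGCGG or its reverse complement, found in 35.7% of windows) at -86, and *Artn* held 2, at -50 and -30. The core motif of SOX factors (ACAAAG, 18.7% of windows) was in none of these 3 windows and in 1 of the 2 *Gfra4* windows. E-boxes (CANNTG, 72.3% of windows, not capitalised) numbered 1 in the *Gdnf* window shown, 3 in *Nrtn* and 2 in *Artn*, and no match overlapped a match to another motif. The GC content was 51.7% for that *Gdnf* window, 66.7% for *Nrtn* and 61.3% for *Artn*, against a median of 52.7% over all windows. A match describes these letters only.

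*Gdnf* (ENSMUSG00000022144, chr15:7810846-7837575 on the plus strand of GRCm38, protein coding) encodes the founding ligand of the family, which binds GFRA1. Its counts in the size-selected libraries ran from 61 to 189 with a median of 85, while 7 of the 8 whole spleen libraries were at 0 and number 427 had 2. In CPM the size-selected libraries ran from 3.41 through a median of 5.75 to 9.06. The groups did not overlap, and the smallest size-selected value was far above the only whole spleen library with any count (0.163 CPM). The means were 6.17 ± 1.89 CPM (SD, n = 8) and 0.0204 ± 0.0576 CPM (SD, n = 8). The edgeR log2 fold change was 7.88 (SE 0.50, adjusted p = 3.48e-10), and *Gdnf* was higher in 8 of 8 pairs, as were 31.3% of all genes tested. Only 58 of the 14510 genes had a larger log2 fold change. Because whole spleen held 2 counts in all, the size rests on them: the ratio of scaled counts was 352, with an exact 95% interval from 97.2 to 2914 that covers counting error only. Without number 427 whole spleen was at 0 and the fitted value of 9.61 depends on the prior count. Among the tested members *Gdnf* varied least relative to its mean in the size-selected libraries (CV 30.6%).

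*Nrtn* (ENSMUSG00000039481, chr17:56751325-56757530, minus strand) encodes neurturin, the preferred ligand of GFRA2. Size-selected libraries had 1.38 to 5.35 CPM with a median of 2.26, from 20 to 75 counts. Whole spleen libraries had 0 to 0.587 CPM with a median of 0.0728, and 3 of the 8 were at 0. The size-selected library of number 427 was the highest and that of 408 the lowest, and the groups did not overlap. The means were 2.80 ± 1.27 and 0.202 ± 0.245 CPM (SD, n = 8 each), and the log2 fold change in edgeR was 3.73 (SE 0.57, adjusted p = 1.35e-05) with 8 of 8 pairs higher.

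*Artn* (ENSMUSG00000028539, chr4:117926162-117929763, minus strand) encodes artemin, the preferred ligand of GFRA3, known for guiding sympathetic fibres along blood vessels. Its size-selected counts ran from 5 to 31 (0.345 to 2.21 CPM, median 1.46), and in whole spleen 6 of the 8 libraries were at 0, with 3 counts in number 435 and 1 in number 436. Every size-selected library was above every whole spleen library, with the closest values at 0.345 and 0.210 CPM. The ratio of scaled counts was 38.0 with an exact 95% interval from 14.6 to 141, for counting error only. Fitted without a count filter, which tested 28235 genes and called 25.3% of them higher, edgeR gave *Artn* a log2 fold change of 4.92 with an adjusted p of 2.9e-06.

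*Pspn* (ENSMUSG00000002664, chr17:56999457-57000018, minus strand) encodes persephin, the preferred ligand of GFRA4. It had 2 counts in number 408, 1 in number 447 and 2 in number 460 among the size-selected libraries, after division by a constant these columns carry, and 2 counts in whole spleen number 445. All other libraries were at 0, and every library was under 3 counts, the limit that a count of 0 allows. A difference was not detectable at this depth, and edgeR without the count filter did not call it (adjusted p = 0.517).

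The co-receptor genes were all tested and all called higher, as were 37.5% of all genes tested. As for the members together, this is given as a description. Their log2 fold changes ran from 1.66 for *Gfra2* to 6.27 for *Gfra3*. *Gfra1* (ENSMUSG00000025089, chr19:58235604-58455909, minus strand) encodes the GDNF co-receptor. Its size-selected libraries ran from 1.38 to 11.7 CPM with a median of 3.25, and whole spleen libraries from 0 to 1.63 CPM with a median of 0.164. The groups overlapped, because whole spleen number 427 (1.63 CPM) was above size-selected number 407 (1.38 CPM), but within each number the size-selected library was higher. Size-selected number 436, at 11.7 CPM, stood far above the next library (3.80 CPM). The means were 4.03 ± 3.19 and 0.419 ± 0.592 CPM (SD, n = 8 each). Without number 436 the size-selected mean was 2.94 ± 0.877 CPM, and without number 427 the whole spleen mean was 0.246 ± 0.360 CPM (SD, n = 7 each). The log2 fold change in edgeR was 3.26 (SE 0.69, adjusted p = 0.000388). The value was 2.64 without number 436 and 3.99 without number 427. In the 4 male numbers alone it was 2.84 with an adjusted edgeR p of 0.061, which did not pass. The last exon overlaps *Gm16277* on the other strand, which had at most 1.31 counts in any library.

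*Gfra2* (ENSMUSG00000022103, chr14:70890120-70979838, plus strand) encodes the neurturin co-receptor and was the most abundant member in whole spleen. Whole spleen libraries ran from 8.22 to 22.2 CPM with a median of 11.8, and size-selected libraries from 28.4 to 69.7 CPM with a median of 36.1. The groups did not overlap, and number 427 was the highest in both. The means were 41.7 ± 14.6 and 13.2 ± 5.11 CPM (SD, n = 8 each). The edgeR log2 fold change of 1.66 (SE 0.23, adjusted p = 4.59e-06) was the smallest of the co-receptor genes and ran from 1.55 to 1.81 when libraries were left out in turn. The summed CPM of the macrophage, smooth muscle and endothelial lists was also highest in number 427 in both groups (by mean log2 CPM, number 460 was above it for smooth muscle in the size-selected group), and their part in the *Gfra2* difference was not tested.

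*Gfra3* (ENSMUSG00000024366, chr18:34689898-34720387, minus strand) encodes the artemin co-receptor. In whole spleen 6 of the 8 libraries were at 0, number 436 had 1 count and number 427 had 21 (1.71 CPM). The size-selected libraries fell into a low and a high range: numbers 407, 445, 447 and 460 had 2.72 to 3.94 CPM, numbers 408, 427 and 435 had 13.9 to 18.3 CPM, and number 436 had 67.5 CPM. No size-selected library was as low as any whole spleen library, although the highest was 24.8 times the lowest within the group. The means were 16.2 ± 21.8 and 0.223 ± 0.602 CPM (SD, n = 8 each), with a log2 fold change of 6.27 in edgeR (SE 1.03, adjusted p = 2.78e-05) and 8 of 8 pairs higher. Without number 436 the size-selected mean was 8.85 ± 7.34 CPM (SD, n = 7) and the log2 fold change 5.25. Leaving out whole spleen number 427 gave 9.79 over 1 remaining whole spleen count. Only 311 of the 14510 genes had a larger value than the 6.27 of *Gfra3*.

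*Gfra4* (ENSMUSG00000027316, chr2:131039632-131043088, minus strand) encodes the persephin co-receptor. Size-selected libraries ran from 0.783 to 5.14 CPM with a median of 3.17, against 0 to 0.544 CPM with a median of 0.247 in whole spleen. The groups did not overlap, and 2 whole spleen libraries were at 0. The means were 3.14 ± 1.37 and 0.237 ± 0.192 CPM (SD, n = 8 each), and edgeR gave 3.70 (SE 0.50, adjusted p = 3.14e-06) with 8 of 8 pairs higher. The microRNA gene *Mir6973b* lies within the gene and was at 0 in all libraries.

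*Ret* (ENSMUSG00000030110, chr6:118151745-118197718, minus strand), the signalling receptor, showed the smallest difference of the tested members. Size-selected libraries ran from 1.23 to 4.34 CPM with a median of 2.90, and whole spleen libraries from 0.549 to 3.33 CPM with a median of 0.923. The groups overlapped, and *Ret* was higher in 6 of 8 pairs and lower in the size-selected libraries of numbers 435 and 447. Whole spleen number 447, at 3.33 CPM, stood above the other whole spleen libraries, of which the next was 1.58 CPM. The means were 2.91 ± 1.18 and 1.25 ± 0.912 CPM (SD, n = 8 each), and the log2 fold change in edgeR was 1.21 (SE 0.38, adjusted p = 0.00898). It was 1.61 without number 447. In the 4 female numbers alone it was 0.93 with an adjusted edgeR p of 0.168.

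**Figure D2:**
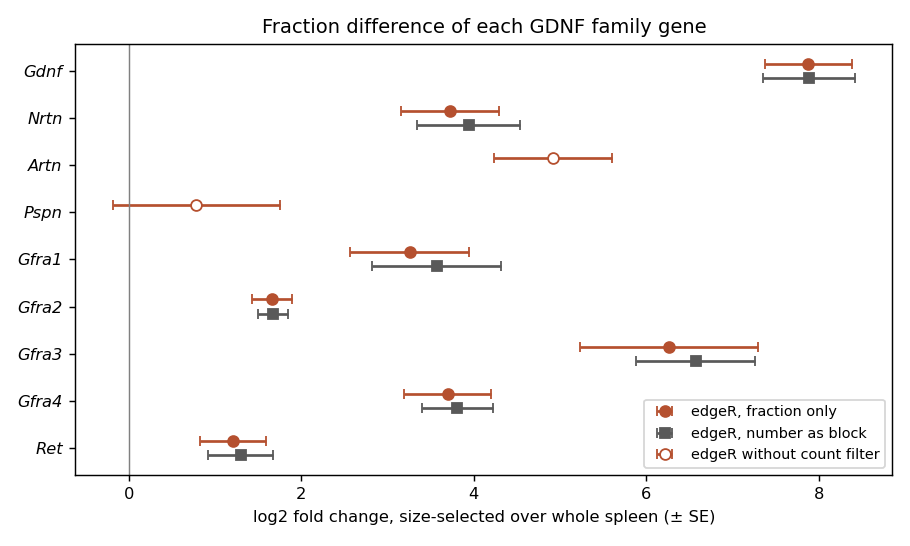
Log2 fold change of each gene, size-selected over whole spleen (x axis, ± SE), from edgeR with the fraction alone (filled circles), with the number as a block (squares) or, for *Artn* and *Pspn*, without the count filter (open circles). Values run from 1.21 for *Ret* to 7.88 for *Gdnf* among the tested genes, the block left each of the 7 called, and the interval of *Pspn* spans 0.

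The authors' deposited table, which lists 2201 genes with log2 fold changes of at least 3.5, held 5 of the 9 genes. In the authors' deposited table the log2 fold change was 8.16 for *Gdnf*, 6.19 for *Gfra3*, 4.99 for *Artn*, 3.81 for *Nrtn* and 3.80 for *Gfra4*. In the authors' deposited table the mean TPM for *Gdnf* was 2.14 in size-selected samples and 0.00625 in whole spleen, and for *Gfra3* 11 and 0.128.

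Per kilobase of annotated exon, the order of levels in the size-selected libraries was *Gfra2* (11.8 ± 4.12 CPM per kilobase, SD, n = 8), *Gfra3* (8.10 ± 10.9), *Nrtn* (2.74 ± 1.25), *Gdnf* (1.68 ± 0.514), *Gfra4* (1.45 ± 0.633), *Gfra1* (0.735 ± 0.583), *Artn* (0.570 ± 0.272), *Ret* (0.430 ± 0.175) and *Pspn* (0.0792 ± 0.117). All neighbours in this order overlapped between libraries. With the longest annotated transcript as the length, *Gfra4* (1.75) was above *Gdnf* (1.68), and in whole spleen *Ret* (0.228) was above *Nrtn* (0.198). *Gfra3* was above *Nrtn* in only 4 of 8 libraries, and its mean without number 436 was 4.43 ± 3.68 CPM per kilobase (SD, n = 7). In whole spleen *Gfra2* led with 3.73 ± 1.45 CPM per kilobase (SD, n = 8) and did not overlap with the next, *Nrtn* at 0.198. The mean of *Ret* there was 0.184 CPM per kilobase. *Nrtn* was above *Ret* in only 3 of 8 whole spleen libraries, and its median was the lower (0.0712 against 0.136). The mean of *Gdnf* was 0.00555 CPM per kilobase, and below *Gfra2* all neighbours overlapped.

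The makeup of the co-receptor genes differed between fractions. In whole spleen *Gfra2* made up 93.4 ± 6.16% of the summed CPM per kilobase of the 4 co-receptor genes (SD, n = 8), from 82.3% to 100%. In the size-selected libraries its share was 60.7 ± 19.5% (SD, n = 8), from 22.3% to 80.4%, with no library as high as the lowest in whole spleen. *Gfra3* took 28.4 ± 22.1% of the size-selected level (SD, n = 8), from 6.95% to 69.7% in number 436, against 1.53 ± 3.95% in whole spleen, where number 427 alone had 11.3%. Without number 436 the size-selected shares were 66.2 ± 12.7% for *Gfra2* and 22.5 ± 15.7% for *Gfra3* (SD, n = 7), and without number 427 the whole spleen share of *Gfra3* was 0.138 ± 0.366% (SD, n = 7). The shares of *Gfra4* (7.55 ± 3.64% against 3.25 ± 3.09%) and *Gfra1* (3.31 ± 1.24% against 1.86 ± 2.42%) were small in both fractions and overlapped.

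**Figure D3:**
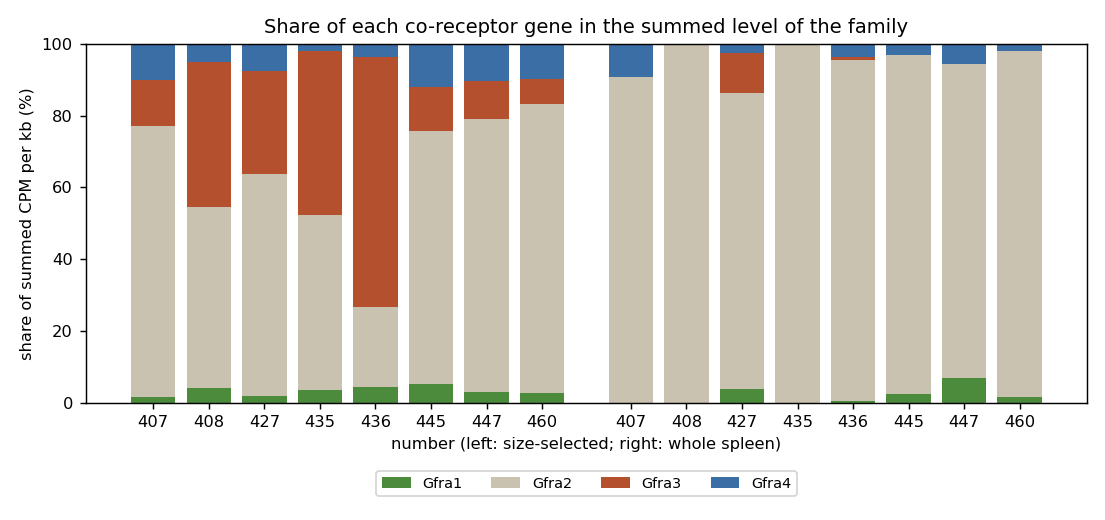
Share of each co-receptor gene in the summed CPM per kilobase of the 4 genes (y axis, %) for each library, with the 8 size-selected libraries on the left and the 8 whole spleen libraries on the right, labelled by number. *Gfra2* made up 82.3% or more in every whole spleen library, and *Gfra3* reached 69.7% in size-selected number 436.

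Across the 8 size-selected libraries, the 8 members with enough counts were set against scores (mean log2 CPM) of 8 cell type lists, 64 relations in all, with exact two-sided permutation tests over all pairings. Of these, 11 had a raw p under 0.05 by Pearson r and 0 passed Benjamini-Hochberg adjustment. Only 2 of the 11 were with the glia score. The other 9 were *Nrtn* and *Gfra2* with the smooth muscle and macrophage scores and *Artn* with the sympathetic neuron and endothelial scores (r from 0.716 to 0.857), and *Nrtn*, *Gfra2* and *Gfra4* with the B cell score (r from -0.826 to -0.739), with exact permutation p from 0.0142 to 0.0478 and adjusted p from 0.217 to 0.278. Their rho ran from 0.50 to 0.810 and from -0.881 to -0.548 (exact permutation p from 0.00724 to 0.216, adjusted 0.154 to 0.532). Without the 2 libraries farthest from the median score, r was 0.172 for *Gfra2* with the macrophage score (without numbers 427 and 460), 0.0136 for *Artn* with the endothelial score (without 408 and 427) and -0.392 for *Gfra2* with the B cell score (without 427 and 435), so these 3 rest on those libraries. For the other 6 it ran from 0.557 to 0.818 and from -0.818 to -0.548. By rho alone, *Gfra4* with the smooth muscle (0.881) and fibroblast (0.810) scores and *Ret* with the macrophage score (-0.738) were also under 0.05. The exact permutation p of these ran from 0.00724 to 0.0458, and adjusted p from 0.154 to 0.293. *Gfra3* is taken up below. *Gfra1* gave r = 0.916 with the glia score (exact permutation p = 0.00265, adjusted 0.0849; rho = 0.786, exact permutation p = 0.0279, adjusted 0.255), and r = 0.875 without numbers 427 and 436, the 2 farthest from the median score. For *Gfra3* the low and high ranges make a pooled correlation unsuitable, and each holds too few libraries to test: its 4 low libraries had glia scores of 2.67 to 3.18 and its 4 high libraries scores of 3.40 to 5.21, with number 436 the highest in both measures. *Gdnf* gave r = 0.308 with the glia score (exact permutation p = 0.456, adjusted 0.711), and r = -0.0669 without numbers 427 and 436. It was highest in number 460, at 9.06 CPM with a score of 3.18, and next in number 436, at 8.41 CPM with a score of 5.21. Among the 28 pairs of members none passed adjustment, the smallest adjusted p of exact permutation tests being 0.225.

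**Figure D4:**
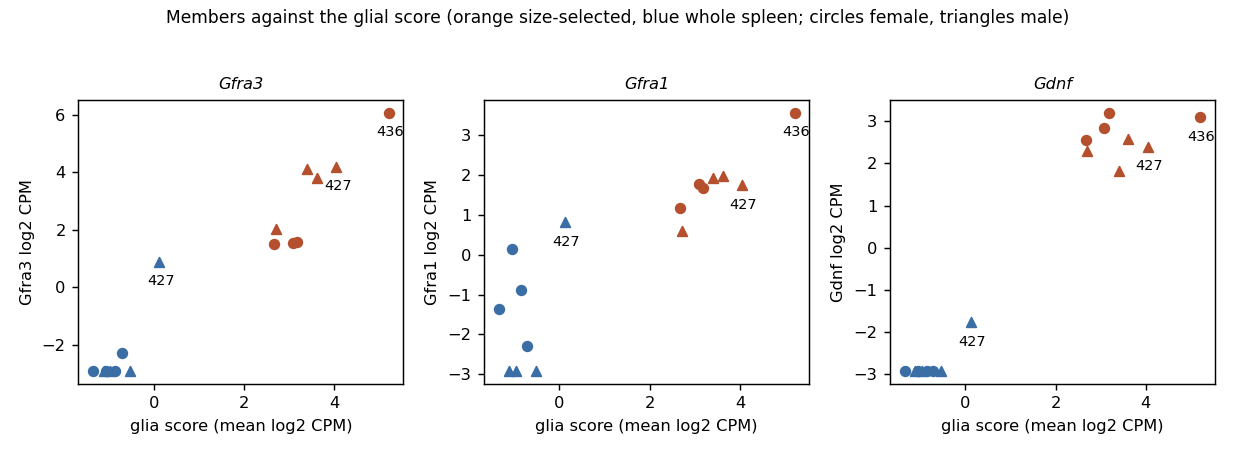
Log2 CPM of *Gfra3*, *Gfra1* and *Gdnf* (y axes) against the glia score, the mean log2 CPM of 10 glia markers (x axis), in size-selected (orange) and whole spleen (blue) libraries, with circles for female and triangles for male samples and with numbers 427 and 436 labelled. Size-selected number 436 is highest for the score (5.21) and for *Gfra3* and *Gfra1*, whole spleen number 427 is the highest blue point in each panel, and *Gdnf* shows a narrower range in the size-selected libraries.

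For each member with enough counts, the 3 genes with the most similar log2 CPM over the 8 size-selected libraries were taken from 14503 genes, as a description of likeness. Genes with r of at least 0.9 numbered 2 for *Ret*, 33 for *Gdnf*, 39 for *Gfra2*, 104 for *Artn*, 211 for *Nrtn* and 214 for *Gfra4*. The *Gfra2* and *Artn* likenesses were not tested without the libraries on which their macrophage and endothelial relations rest. For *Gfra3* the ranking follows its low and high ranges and number 436, and for *Gfra1* number 436 stood apart from the others, so no r is given for either. For *Gfra3* the genes were *Kcna1*, a potassium channel gene on the glia list, *Chadl* and *Tmod2*. *Gfra1* was most like *Slc35f1*, *Chl1*, a neural cell adhesion gene, and *Cdh19*, a cadherin gene on the glia list. *Gfra2* was most like *Myo7a* (r = 0.968), *Cd68*, a lysosomal protein gene typical of macrophages, and *Hyal1*. *Artn* was most like *Heyl* (r = 0.987), a Notch target gene, *Gja5*, a connexin gene of arterial endothelium, and *Tmem231*. *Gdnf* was most like *Oaf* (r = 0.972), *Slc38a2* and *Btbd7*, *Nrtn* like *Snx6* (r = 0.996), *Leprot* and *Idh1*, and *Gfra4* like *Colgalt2* (r = 0.990), *Pofut2* and *Rprd1a*. *Ret* was most like *Stx1a* (r = 0.969), a syntaxin gene, then AC114990.3 and *S100a11*.

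No member was called between the sexes. In whole spleen 2 members were tested and 0 were called by edgeR (0.194% of all genes tested), and 1 had an unadjusted p under 0.05. That was *Gfra2*, with 10.5 ± 1.78 CPM in female and 15.9 ± 6.24 CPM in male samples (SD, n = 4 each) and an edgeR log2 difference of -0.60 (adjusted p = 0.306). In the size-selected libraries 8 members were tested and 0 were called (0.0397% of all genes), and 1 had an unadjusted p under 0.05. That was *Gdnf*, with 7.54 ± 1.5 CPM in female and 4.79 ± 1.01 CPM in male samples (SD, n = 4 each) and an edgeR log2 difference of 0.63 (SE 0.25, adjusted p = 0.999). DESeq2 called 0 members in either fraction and had 1 under an unadjusted 0.05 in each, and limma-voom called 0, with 0 under it in whole spleen and 1 in the size-selected libraries. For the interaction of sex and fraction edgeR called 0 of 8 members (0% of all genes), and DESeq2 called 0. The member at an unadjusted p under 0.05 was *Gdnf* in edgeR and *Gfra3* with the number as a block, and DESeq2 had 0. The interaction of *Gdnf* was 3.15 on the log2 scale and 0.69 without number 427, whose whole spleen library holds its only 2 counts in that group.

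The other genes of the pathway moved in both directions. Of 32 genes listed for GDNF and RET signalling, 26 were tested, 15 were higher (57.7%, against 37.5% of all genes), 4 were lower (15.4%, against 30.4%) and 7 were not called, with a median log2 fold change of 1.29. Of the 4 tested genes for other receptors or related proteins, 3 were higher (75%, against 37.5% of all genes). *Gas1*, whose product resembles the GFRA co-receptors and can bind RET, had 22.2 to 116 CPM in size-selected and 0.0686 to 2.69 CPM in whole spleen libraries (log2 fold change 6.25, SE 0.53, edgeR adjusted p = 7.70e-09). *Ncam1*, an alternative GDNF receptor with GFRA1, had 9.89 to 48.1 CPM against 0 to 2.31 CPM (4.85, SE 0.57, edgeR adjusted p = 4.64e-07), and its log2 fold change was 5.45 without number 435. *Sdc3*, a heparan sulfate proteoglycan that binds GDNF, had 252 to 649 CPM against 71.4 to 167 CPM (2.21, SE 0.21, edgeR adjusted p = 2.67e-08). *Gdf15*, a ligand of the related receptor GFRAL, was not called (-0.08, SE 0.16), and *Gfral* was at 0 in all libraries.

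Of 14 adaptors and effectors of RET tested, 7 were higher (50%, against 37.5% of all genes) and 4 were lower (28.6%, against 30.4%), with a median of 0.30. The log2 fold change was 4.47 (SE 0.26) for *Grb10*, 3.33 (SE 0.23) for *Gab1* and 2.48 (SE 0.25) for *Src*, a tyrosine kinase gene. It was -1.69 (SE 0.36) for *Grb7*, whose size-selected values carry a constant and which gave -1.27 with restored counts, -0.86 (SE 0.17) for *Dok2*, -0.58 (SE 0.11) for *Dok1* and -0.50 (SE 0.12) for *Grb2*, the last an adaptor that couples receptors to RAS. The groups did not overlap for *Grb7* and *Dok1*, and overlapped for *Dok2* and *Grb2*. B cell and T cell markers were lower in the same libraries, and their part in these falls was not tested. Among regulators and targets downstream of RET 5 of 8 tested were higher (62.5%, against 37.5% of all genes). Among them were the feedback inhibitor genes *Spry4* (4.68, SE 0.24) and *Spry1* (4.21, SE 0.26) and the transcription factor gene *Etv1* (3.44, SE 0.36). The size-selected values of *Etv1* carry a constant, and restored counts gave 3.68. These genes respond to many receptors. Fibroblast and smooth muscle markers were higher in the same libraries, and their part in these rises was not tested. With library totals in place of TMM the median of all genes moved from 0.05 to 0.18, the 4 lower genes were still called lower, and 19 of the 26 in place of 15 were called higher, with *Cbl*, *Frs2*, *Sos1* and *Spry2* gained, while 6041 in place of 5446 of all 14510 genes were called higher.

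**Figure D5:**
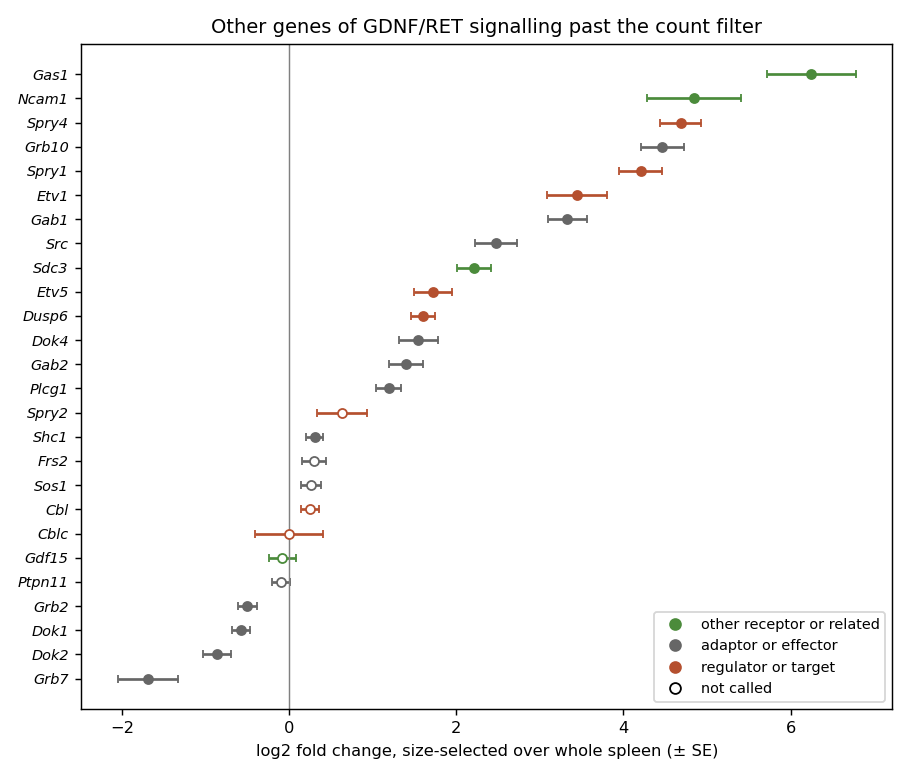
Log2 fold change, size-selected over whole spleen (x axis, ± SE, edgeR), of the 26 tested genes of the pathway list, coloured by role, with open points for the 7 genes not called. Values run from -1.69 for *Grb7* to 6.25 for *Gas1*, and all 4 lower genes are adaptors.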

How the data were processed

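RNA was sequenced from 8 size-selected and 8 whole spleen samples. The count table deposited by the authors gives estimated counts for each gene and sample, and the submitters' processing notes name Trim Galore, STAR, RSEM, DESeq and the build mm10, with no versions or roles. For 3896 genes the size-selected values are counts multiplied by a constant between 0.659 and 0.964, as found from the numbers alone. Of the 9 genes *Pspn* carries one. Many pathway genes and cell type markers also do, among them *Ncam1*, *Etv1* and all listed smooth muscle markers. The list sums use the values as deposited. The authors' comparison table holds, per the file headers, a base mean signal, log2 fold changes, their standard errors, a test score, p-values with adjusted p-values, and group means in TPM and FPKM (the FPKM were not used).

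The deposited estimated counts were rounded and tested with edgeR 4.0.16 in R 4.3.3: filterByExpr with a minimum count of 10, TMM scaling, the quasi-likelihood F test with the fraction as the only term, and Benjamini-Hochberg adjustment over all genes, with calls at an adjusted p under 0.05. Sex was tested within each fraction, and its interaction with fraction over all 16 samples. Each standard error was derived from the log2 fold change and its F statistic. Log2 CPM used a prior count of 2, and levels per kilobase used the exons of GENCODE M21 (GRCm38), where all 9 genes matched. The labels do not say outright that samples are separate mice, so p-values measure the spread between these samples.

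Same-numbered samples deviated together from their group means (r from 0.12 to 0.38 in 8 of 8 pairs over 14510 genes), and the pairing comes from the number in the labels. Alternatives were other scalings and filters, a block for the number, sex as a covariate, a single sex, restored counts, leaving out each number, limma-voom (limma 3.58.1) and DESeq2 1.42.0. The scripts were tested on simulated data. The members, the pathway list and the 13 cell type lists were chosen with earlier results of these data known. The genes named are the members, the listed other receptors and the 3 genes most like each member. Also named are, of the pathway genes called in the main fit, the 8 that rose most and the 4 that fell most. *Gdf15*, *Dbh* and *Th* were named after their values were seen. Amino acid sequences were not used here.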

Additional observations from a re-analysis of the deposited data

Results flagged for a closer look

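The log2 CPM of the 9 members (18 groups of 8) and the scores of the cell type lists (16 groups) were screened for a highest or lowest sample whose gap to its neighbour exceeded 0.526 of the whole range. Such a sample was found in 5 of the 34 groups. Chance gives about 1 in 20 for groups without ties, and this share has no meaning where the other libraries sit at no count, since any count then stands apart. *Gdnf* in whole spleen number 427 was -1.76, with the other libraries at -2.92, the value for no count. *Gfra3* in the same library was 0.88, with the others between -2.92 and -2.29. Whole spleen number 427 was also the highest of its group for the glia, fibroblast, smooth muscle, endothelial and macrophage lists, and the part of these in its *Gdnf* and *Gfra3* counts was not tested. *Gfra1* in size-selected number 436 was 3.56, with the others between 0.60 and 1.97, in the library with the highest glia marker sum. *Artn* in whole spleen number 435 was -1.55, from 3 counts, with the others between -2.92 and -2.29. *Pspn* in whole spleen number 445 was -1.89, from 2 counts, with the others at -2.92.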

How the results depend on the processing

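The 7 tested members were called higher under RLE scaling, library totals, DESeq2, limma-voom, sex as a covariate and restored counts, and with the number as a replicate block, where 7 members and 21 pathway genes were called and no member's call changed. With the block, edgeR gave *Gdnf* 7.89 (adjusted p = 8.45e-08), *Nrtn* 3.94 (8.17e-05), *Gfra1* 3.57 (0.000979) and *Gfra2* 1.675 (2.82e-06). It gave *Gfra3* 6.57 (adjusted p = 3.22e-06), *Gfra4* 3.81 (4.41e-06) and *Ret* 1.30 (0.00804). Pathway genes called numbered 23 under library totals, and 19 with restored counts and the block together, where *Cbl* and *Spry2*, gained with the block alone, were not called. Leaving out libraries gave 7 to 8 members and 19 to 22 pathway genes. A minimum count of 30 left 3 members tested, and all 3 were called higher, as were 4764 of the 12533 genes tested. *Gfra1* in males only (2.84) and *Ret* in females only (0.93) kept their direction but missed the threshold. With limma-voom *Gfra1* was 4.25, *Nrtn* 4.34, *Gdnf* 7.10, *Gfra3* 7.04, *Ncam1* 5.57 and *Gas1* 6.89. In females and males alone, *Gdnf* was 9.91 and 6.60, *Gfra3* 9.59 and 4.93, *Ncam1* 6.13 and 3.94, and *Gas1* 7.28 and 5.60. No direction reversed. Depth limits *Pspn* and *Artn*, and the whole spleen levels of *Gdnf* and *Gfra3*, which rest on 2 and 22 counts in all. Restored counts moved the fold change of each of the 7 tested members by less than 0.1 on the log2 scale. No member was called between the sexes, or for the interaction, when any number was left out.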
